A study of Mus musculus with 12 samples.

Results

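Acetylcholine receptors of the mouse dorsal root ganglion were followed through 10 genes, 7 nicotinic subunits (Chrna3, Chrna4, Chrna6, Chrna7, Chrnb2, Chrnb3 and Chrnb4) and 3 muscarinic receptors (Chrm1, Chrm2 and Chrm3), among the 24060 genes named in the files. They were chosen by symbol. RNA-seq libraries came from adult male C57BL/6J mice aged 9-10 weeks, with 3 libraries from naive mice and 3 each at days 1, 3 and 7 after spared nerve injury, in which the sciatic nerve's tibial and common peroneal branches are tied and cut while its sural branch is spared. The labels mention no surgery for the naive mice, so the operation itself and the nerve lesion cannot be told apart here. They also do not say which ganglia were taken or whether a library is 1 animal or a pool, so p-values cover the spread from library to library, which may be technical.

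Nicotinic receptors are pentameric cation channels opened by acetylcholine. Chrna7 subunits can form a channel on their own, whereas Chrna3, Chrna4 and Chrna6 need a beta subunit such as Chrnb2 or Chrnb4, and Chrnb3 is an accessory subunit, often found beside Chrna6. Chrna3 with Chrnb4 is the classical pair of autonomic ganglia, and in mice Chrna6 in sensory neurons has been tied to mechanical allodynia after nerve injury. Muscarinic receptors act through G proteins: Chrm1 and Chrm3 through the Gq class and phospholipase C, Chrm2 through the Gi/o class, which lowers cyclic AMP and opens potassium channels, and in rodents Chrm2 is known to dampen nociceptors.

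After injury 4 receptor genes were called lower (limma, adjusted p under 0.05) at 1 or more days. They were the nicotinic subunits Chrna6, Chrna7 and Chrnb3 and the muscarinic receptor Chrm2. Of 8 tested members, 1, 4 and 2 were called lower at days 1, 3 and 7. Of all genes tested, 0.831%, 1.95% and 0.599% were called and lower at those days. Chrnb3 was called only at day 3, and that call held in 8 of 12 fits without 1 library. Chrna6 fell at all 3 days and had its lowest mean at day 1, at 4.53 ± 0.925 RPKM against 12.3 ± 0.854 RPKM in naive ganglia (SD, n = 3 each). Chrm2 had its lowest mean at day 3, at 2.96 ± 0.524 RPKM against 7.15 ± 0.574 RPKM in naive ganglia. None of the 8 tested members was called higher, and Chrna3 had its highest mean at day 7, at 5.99 ± 1.06 RPKM against 3.98 ± 1.21 RPKM in naive ganglia, without passing the test. RPKM scales reads to gene length and library size. Levels can be set side by side between genes only roughly, because they also depend on which exons were counted. In a whole ganglion, fewer cells of a type and less RNA per cell cannot be told apart.

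Libraries held 13626893 to 17952865 reads, and a single read on 1 kb of gene counted for 0.0557 to 0.0734 RPKM. Atf3, the injury-induced transcription factor, checked the labels at 57.4 to 77.9 RPKM at day 1, 84.1 to 104.0 at day 3 and 44.1 to 70.1 at day 7, against 2.33 to 2.38 RPKM in naive ganglia. The sensory neuron markers fixed for the tissue were present: 12 of 12 general neuron markers passed the expression filter, which asked for 1 RPKM or more in 3 or more libraries. Of 10 skeletal muscle genes the summed RPKM was 31.99 in day 7 replicate 2 and 42.36 in naive replicate 1, and 7.83 or less in the other 10 libraries. For the 8 tested members, results that depend on those 2 libraries are given with and without them. For other named genes only fits with all 12 libraries are given.

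In naive ganglia the receptor genes spanned 2 orders of magnitude. Chrna7 was highest at 14.2 ± 2.14 RPKM, above 82.8% of the detected genes, followed by Chrna6 at 12.3 ± 0.854 and Chrnb2 at 10.8 ± 1.4 RPKM. The ranges of these neighbours overlapped, so their order was within the spread of the libraries. Chrm2 followed at 7.15 ± 0.574 RPKM, below the lowest Chrnb2 library and above the highest Chrna3 library. Chrna3 at 3.98 ± 1.21, Chrnb3 at 3.58 ± 0.54 and Chrnb4 at 2.83 ± 0.742 RPKM overlapped from neighbour to neighbour. Chrna4 at 1.51 ± 0.298 RPKM was the lowest of the 8 well-measured members. Chrm3 at 0.644 ± 0.0957 and Chrm1 at 0.135 ± 0.0833 RPKM lay below the filter and are described apart.

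**Figure D1:**
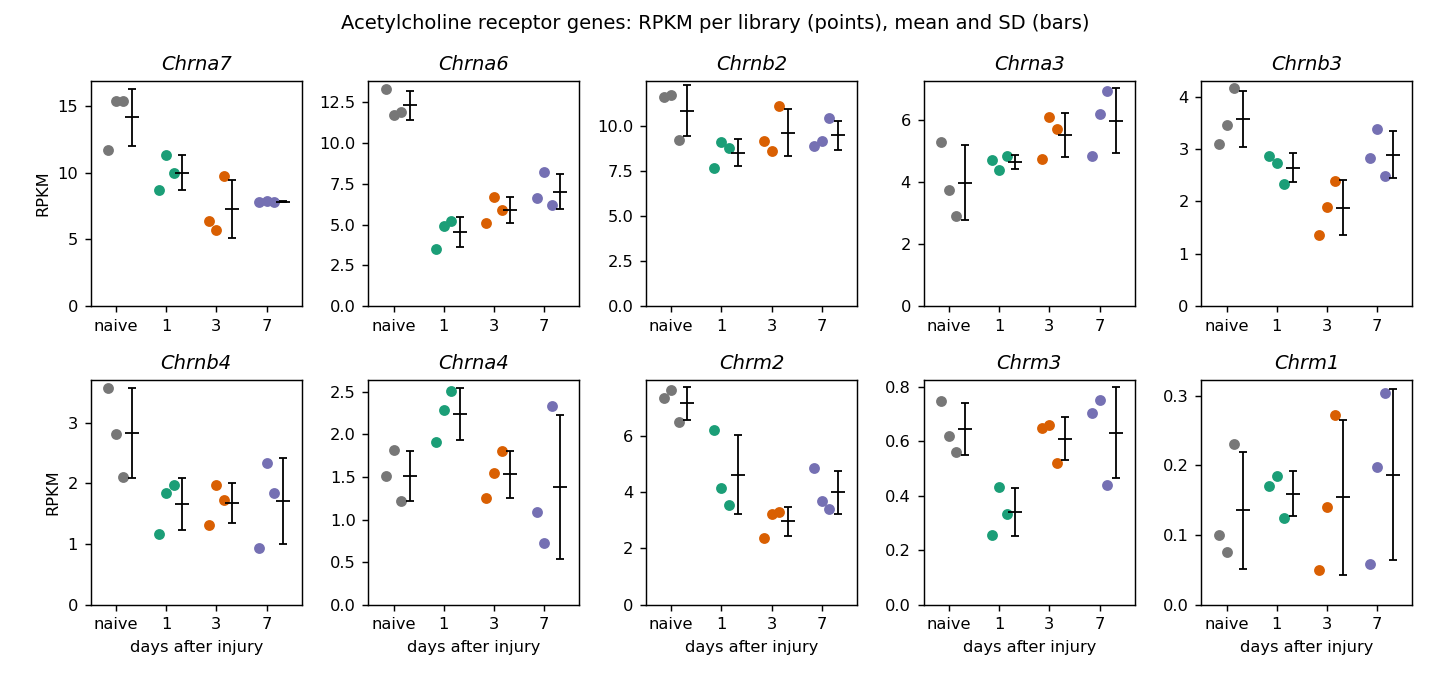
RPKM (vertical axes, linear from 0) of the 10 receptor genes in naive ganglia and at days 1, 3 and 7 after injury, with 1 point per library and the mean ± SD of 3 libraries as bars. The 9 injured libraries of Chrna6 lie between 3.48 and 8.22 RPKM, below all 3 naive libraries, whereas those of Chrna3 lie inside or above the naive range.

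The precision behind these levels came from the read counts. Chrnb2 had the most, with 659 to 1059 reads per library, then Chrna6 with 161 to 572 and Chrna7 with 188 to 542. Chrnb4 had 53 to 179 reads and Chrna4 57 to 200, so counting error was largest for these among the tested members. The gene lengths behind the deposited values were shorter than the exons annotated in GENCODE M21 for most members. The ratio was 1.0 for Chrna6, 0.593 for Chrna3, 0.464 for Chrna7 and 0.336 for Chrm2, so levels between genes also depend on which exons were counted.

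Each day was compared with naive in a limma model across 14193 genes, with fold changes on the log2(RPKM + 0.5) scale, on which low genes appear to change less than they do. The threshold was an adjusted p of 0.05. At day 1, 1 of the 8 tested members was called, where 3.43% of all genes tested were called and 0.831% were called and lower. At day 3, 4 of the 8 were called, all lower, against 5.67% of all genes called and 1.95% called and lower. At day 7, 2 of the 8 were called, both lower, against 2.92% and 0.599%. A test of any difference among the 4 groups called Chrna6, Chrna7 and Chrm2, 3 of the 8, where 4.78% of all genes tested were called. Without the 2 libraries high in muscle transcripts that test called 2 members. The median log2 fold change of the 8 members was -0.42 at day 1, -0.72 at day 3 and -0.47 at day 7, beside -0.01, 0.00 and 0.00 over all genes tested. All 3 injured libraries lay below all 3 naive libraries for 6 members at day 1, 5 at day 3 and 3 at day 7. Over all genes tested that share was 11.7% at day 1, 12.7% at day 3 and 7.13% at day 7.

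**Figure D2:**
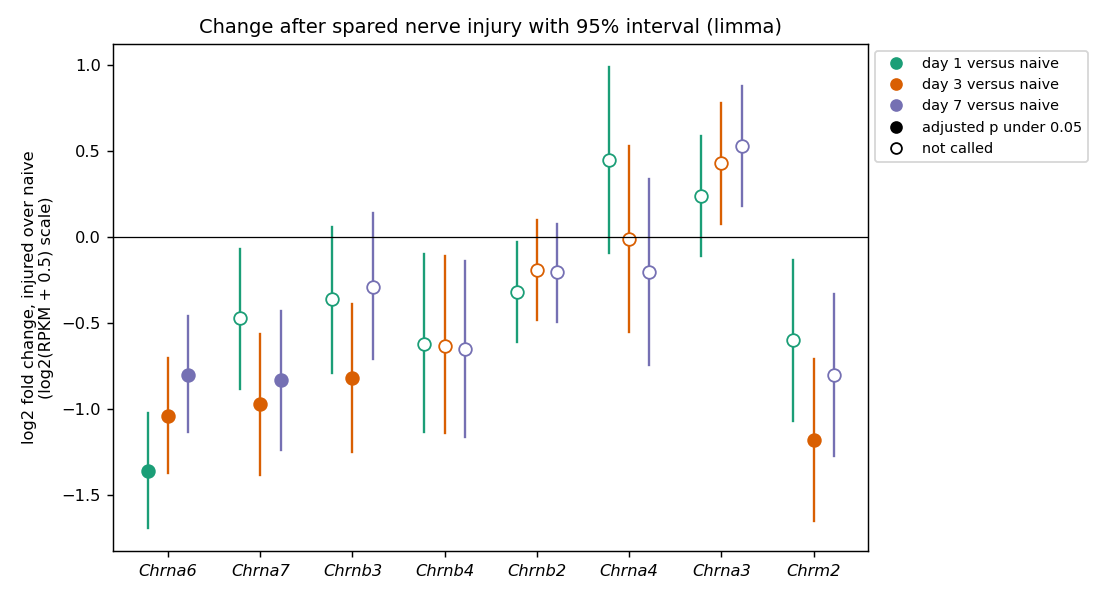
Log2 fold change of injured over naive ganglia (vertical axis, log2(RPKM + 0.5) scale) for the 8 tested members at days 1, 3 and 7, with 95% intervals as lines; filled points have an adjusted p under 0.05. Chrna6 is filled at all 3 days, Chrna7 at days 3 and 7, and Chrnb3 and Chrm2 at day 3.

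Chrna6, the subunit tied to allodynia in mice, was called at all 3 days. It stood at 13.3, 11.7 and 11.9 RPKM in the naive libraries, 3.48, 4.93 and 5.19 at day 1, 5.07, 6.7 and 5.89 at day 3, and 6.63, 8.22 and 6.21 at day 7. Every injured library was below every naive one, and the day 7 libraries were all above the day 1 libraries. The log2 fold change against naive was -1.36 at day 1 (SE 0.16, adjusted p = 0.00019), -1.04 at day 3 (adjusted p = 0.00102) and -0.80 at day 7 (adjusted p = 0.0105). The level at day 1 was 36.9% of the naive mean, at day 3 47.9% and at day 7 57.1%. Between day 7 and day 1 the log2 difference of 0.56 (95% interval 0.22 to 0.89) did not pass (adjusted p = 0.136). The day 7 call ended without the 2 libraries high in muscle transcripts, at a log2 fold change of -0.87 (adjusted p = 0.0602), and without day 7 replicate 3 (adjusted p = 0.0506).

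Chrnb3, the accessory subunit often found beside Chrna6, was lowest at day 3. It measured 3.1, 3.47 and 4.16 RPKM in naive libraries, 2.87, 2.73 and 2.33 at day 1, 1.35, 1.9 and 2.4 at day 3, and 2.83, 3.38 and 2.48 at day 7. The day 1 and day 3 libraries lay below the naive ones, while day 7 overlapped them. The log2 fold change was -0.36 at day 1 (SE 0.20, adjusted p = 0.434), -0.82 at day 3 (adjusted p = 0.0265) and -0.29 at day 7 (adjusted p = 0.642). The day 3 call ended in 4 of the 12 fits without 1 library: naive replicate 2 (adjusted p = 0.0904), naive replicate 3 (0.132), day 3 replicate 1 (0.107) or day 3 replicate 2 (0.08). Both genes lie on chromosome 8 in mm10, Chrnb3 at chr8:27368711-27399730 on the plus strand and Chrna6 at chr8:27403212-27413944 on the minus strand, with 3481 bases between their 3′ ends. The ratio of Chrna6 to Chrnb3 in RPKM was 3.51 ± 0.722 in naive ganglia, 1.75 ± 0.511 at day 1, 3.25 ± 0.695 at day 3 and 2.43 ± 0.084 at day 7. The day 1 ratios of 1.21 to 2.23 and the day 7 ratios of 2.34 to 2.51 lay below the naive ones of 2.85 to 4.28, and those of day 3 overlapped naive. These ratios were not tested.

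Chrna7, the subunit that forms a channel on its own, had its lowest mean at day 3. Its levels were 11.7, 15.4 and 15.4 RPKM in naive libraries, 8.7, 11.3 and 9.96 at day 1, 6.38, 5.69 and 9.77 at day 3, and 7.79, 7.85 and 7.79 at day 7. Each injured library was below all naive libraries, and day 3 replicate 3 stood above the other day 3 and day 7 libraries. The log2 fold change was -0.47 at day 1 (SE 0.19, adjusted p = 0.245), -0.97 at day 3 (adjusted p = 0.00702) and -0.83 at day 7 (adjusted p = 0.0273). The day 3 call held in every alternative run, and the day 7 call did not. It ended without the 2 muscle-rich libraries (-0.98, adjusted p = 0.059), without naive replicate 2 (0.13) or 3 (0.131), without day 7 replicate 2 (0.0892) or 3 (0.106), and with no expression filter (0.0563).

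Chrm2, the Gi/o-coupled muscarinic receptor, was the one muscarinic gene measured well enough to test. It measured 7.33, 7.61 and 6.5 RPKM in naive libraries, 6.19, 4.14 and 3.53 at day 1, 2.36, 3.23 and 3.3 at day 3, and 4.87, 3.7 and 3.39 at day 7. The 9 injured libraries were all below the 3 naive ones, and the day 3 libraries were below those of day 1 and day 7. Its log2 fold change was -0.60 at day 1 (SE 0.22, adjusted p = 0.19), -1.18 at day 3 (adjusted p = 0.00498) and -0.80 at day 7 (adjusted p = 0.0718). The day 3 level was 41.5% of the naive mean, and that call held in every alternative run. At day 7 Chrm2 did not pass in 20 of 25 alternatives, with adjusted p up to 0.357. It passed with voom on recovered reads (-0.89, adjusted p = 0.0242) and with array weights (-0.88, 0.019). It also passed without day 7 replicate 1 (-1.01, 0.0189), and without day 1 replicate 1 (0.0461) or 3 (0.048). Chrm2 shares 142 exonic bases with 9330158H04Rik on the opposite strand, and the labels do not give the strandedness.

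Chrna3 and Chrnb4, the pair typical of autonomic ganglia, did not pass at any day, with Chrna3 means above naive and Chrnb4 means below it. Chrna3 stood at 5.29, 3.74 and 2.91 RPKM in naive libraries, 4.72, 4.39 and 4.83 at day 1, 4.75, 6.1 and 5.72 at day 3, and 4.84, 6.2 and 6.93 at day 7. Naive replicate 1 was the highest naive library, above all day 1 libraries and inside the ranges of days 3 and 7, while the other naive libraries were below all injured ones. The log2 fold change was 0.24 at day 1 (SE 0.16, adjusted p = 0.558), 0.43 at day 3 (adjusted p = 0.17) and 0.53 at day 7 (95% interval 0.18 to 0.88, adjusted p = 0.123). Without naive replicate 1, 1 of the muscle-rich libraries, the day 7 value was 0.70 and passed (adjusted p = 0.0446), but without both muscle-rich libraries it was 0.69 and did not (adjusted p = 0.126). Chrnb4 stood at 3.58, 2.82 and 2.1 RPKM in naive libraries, 1.17, 1.85 and 1.97 at day 1, 1.32, 1.98 and 1.72 at day 3, and 0.942, 2.34 and 1.85 at day 7. Its day 1 and day 3 libraries lay below the naive ones, and day 7 replicate 2 lay inside the naive range. The log2 fold change of Chrnb4 was -0.62, -0.63 and -0.65 at days 1, 3 and 7 (SE 0.24, adjusted p = 0.228, 0.169 and 0.219).

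Set against each other within a library, the pair separated injured from naive ganglia. The ratio of Chrna3 to Chrnb4 was 1.48, 1.33 and 1.39 in naive libraries, 4.04, 2.37 and 2.46 at day 1, 3.59, 3.08 and 3.32 at day 3, and 5.14, 2.65 and 3.74 at day 7. All 9 injured libraries were above the 3 naive ones. The ratio of Chrna3 to Chrna6 likewise separated the groups, at 0.73 to 1.36 in injured libraries against 0.245 to 0.399 in naive ones. Both ratios were chosen after their values were seen and carry no test. Chrna3 lies at chr9:55010111-55026562 and Chrnb4 at chr9:55028154-55048779, both on the minus strand of mm10 and 1591 bases apart.

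**Figure D3:**
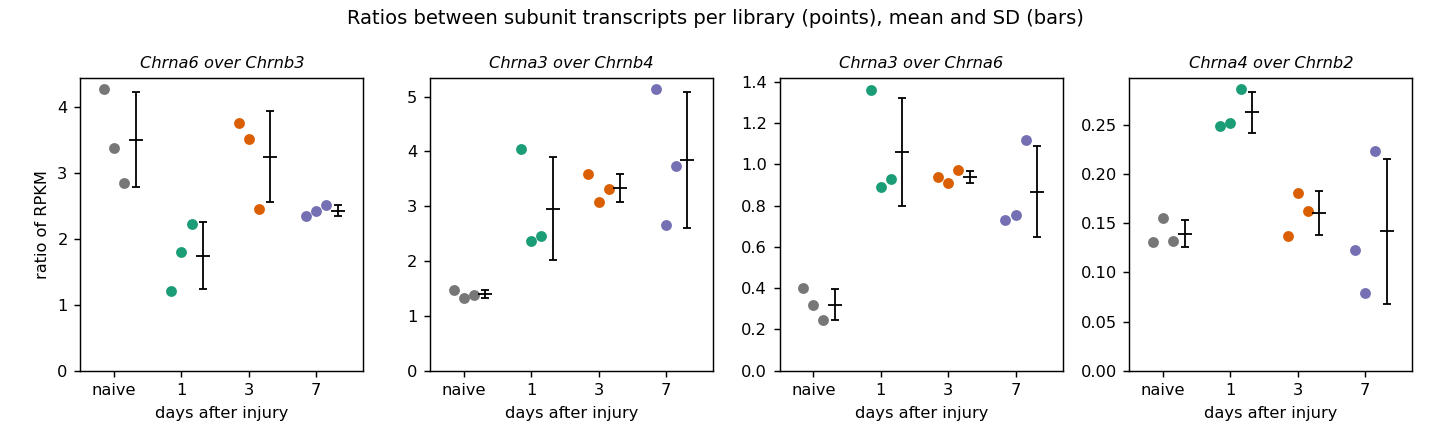
Ratio of RPKM between 2 subunit genes (vertical axes, linear from 0) in naive ganglia and at days 1, 3 and 7, with 1 point per library and the mean ± SD of 3 libraries as bars. Chrna3 over Chrnb4 lies between 2.37 and 5.14 in the injured libraries and between 1.33 and 1.48 in the naive ones.

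Chrnb2 and Chrna4, which together form a common nicotinic receptor of the brain, did not pass at any day. Chrnb2 measured 11.6, 11.7 and 9.21 RPKM in naive libraries, 7.68, 9.08 and 8.77 at day 1, 9.15, 8.59 and 11.1 at day 3, and 8.88, 9.14 and 10.4 at day 7. The day 1 libraries lay just below the naive ones, and days 3 and 7 overlapped naive. The log2 fold change of Chrnb2 was -0.32 at day 1 (95% interval -0.61 to -0.03, adjusted p = 0.267), -0.19 at day 3 (-0.48 to 0.10) and -0.20 at day 7 (-0.49 to 0.08). Chrnb2 shares 1365 exonic bases with Adar on the opposite strand, so some of its reads could belong to Adar. Chrna4 was 1.51, 1.81 and 1.22 RPKM in naive libraries, 1.91, 2.29 and 2.51 at day 1, 1.25, 1.55 and 1.8 at day 3, and 1.09, 0.727 and 2.33 at day 7. Its day 1 libraries were all above the naive ones, at a log2 fold change of 0.45 (95% interval -0.09 to 0.99, adjusted p = 0.444). The share of all genes tested that lay above naive without overlap was not counted. The day 7 libraries of Chrna4 spread on both sides of naive. At days 3 and 7 its values of -0.01 and -0.20 changed sign under some alternatives, so no direction can be given.

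Between the injured days no member was called. The share of all genes called was 0.507% for day 3 versus day 1, 0.972% for day 7 versus day 1 and 0.0% for day 7 versus day 3. At an unadjusted p under 0.05 the members numbered 3, 2 and 1 in that order, and voom called 0 in each. The lowest adjusted p was that of Chrna6 between day 7 and day 1 (0.136), followed by Chrna4 between the same days, at a log2 difference of -0.65 (95% interval -1.19 to -0.11, adjusted p = 0.349), and Chrm2 between day 3 and day 1, at -0.58 (-1.05 to -0.10, adjusted p = 0.394).

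Summed over the 7 nicotinic members, transcripts were scarcer in every injured library, although the Chrna3 and Chrna4 means were above naive at day 1. Other nicotinic subunits, described below, are not in this sum. The 7 subunits summed to 49.2 ± 2.06 RPKM in naive ganglia, 34.2 ± 3.24 at day 1, 33.4 ± 4.62 at day 3 and 36.3 ± 2.85 at day 7, with no overlap between naive and any injured day. Chrna6 made up 25.0% ± 1.74 of that sum in naive libraries, 13.2% ± 1.63 at day 1, 17.8% ± 2.66 at day 3 and 19.4% ± 2.76 at day 7. Chrna3 made up 8.06% ± 2.26, 13.7% ± 1.73, 16.6% ± 1.96 and 16.4% ± 1.78 in the same order, and every injured library was above every naive one. The share of Chrna7 at day 1 was 29.1% ± 1.56 against 28.9% ± 4.89 in naive libraries, and it averaged 21.6% at days 3 and 7. A share also rises when the sum falls, and the RPKM of Chrna3 itself overlapped naive at each day. These shares are a description without a test.

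**Figure D4:**
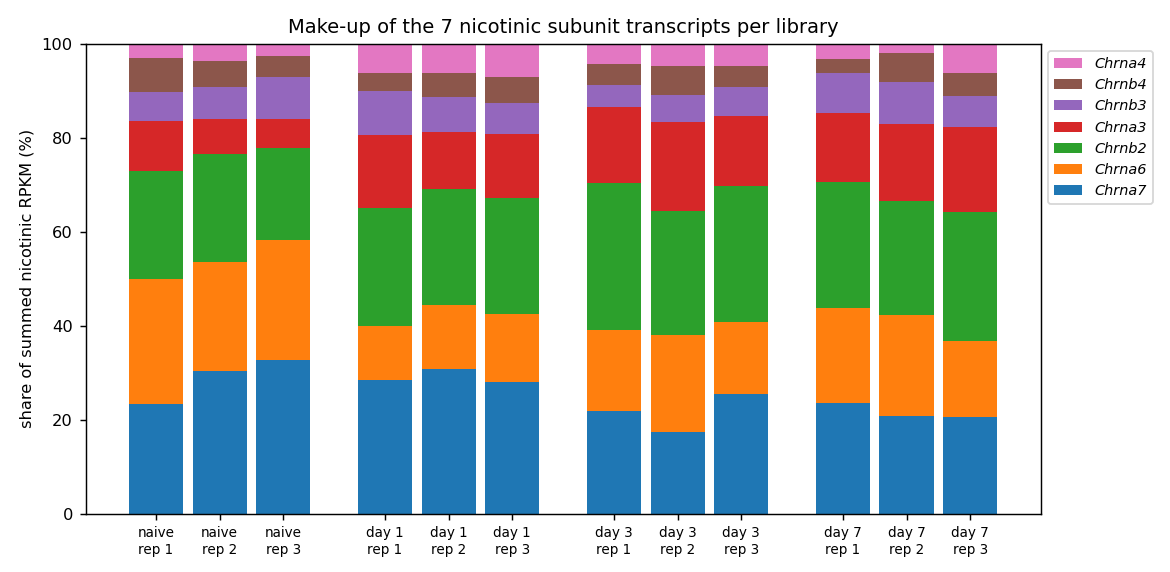
Share of the summed RPKM of the 7 nicotinic subunits (vertical axis, percent) taken by each subunit in each of the 12 libraries, ordered naive, day 1, day 3 and day 7. Chrna6 takes 11.4 to 14.6% at day 1 and 23.1 to 26.5% in naive libraries.

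Upstream sequence is shown for 3 members, to set genes that were called beside one that was not: Chrna7 and Chrm2, which fell at day 3, and Chrna3, which was not called and whose injured means were above naive. The sequences are from RefSeq (GRCm38.p6, the mm10 assembly), for chr7:63212570-63212776 on the minus strand, chr6:36387834-36388083 on the plus strand and chr9:55026563-55026812 on the minus strand, and capitals mark matches to the GC box on either strand. The Chrna7 stretch stops where its GENCODE gene begins.
Chrna7: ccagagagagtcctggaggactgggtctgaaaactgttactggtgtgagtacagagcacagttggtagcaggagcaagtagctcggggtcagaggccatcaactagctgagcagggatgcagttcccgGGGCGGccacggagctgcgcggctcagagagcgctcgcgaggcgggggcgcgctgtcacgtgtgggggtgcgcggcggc
Chrm2: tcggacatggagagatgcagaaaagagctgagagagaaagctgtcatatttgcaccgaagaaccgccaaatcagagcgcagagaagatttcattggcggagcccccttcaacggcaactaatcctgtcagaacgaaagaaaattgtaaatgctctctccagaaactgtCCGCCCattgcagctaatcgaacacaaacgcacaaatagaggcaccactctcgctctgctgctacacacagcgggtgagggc
Chrna3: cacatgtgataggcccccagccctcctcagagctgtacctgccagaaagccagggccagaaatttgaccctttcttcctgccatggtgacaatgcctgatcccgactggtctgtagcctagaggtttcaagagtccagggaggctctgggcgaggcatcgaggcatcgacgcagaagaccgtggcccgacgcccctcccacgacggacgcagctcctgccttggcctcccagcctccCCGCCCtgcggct

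Promoters were in the RefSeq table for 7 of the 10 members, and 4 motifs were searched on both strands in the 250 bases upstream of each start. No member had a match to the AP-1 motif TGANTCA, which 6.75% of 32841 promoters hold, or to the cyclic AMP element TGACGTCA, which 1.55% hold. The GC box GGGCGG, present in 32.7% of promoters, was found in 4 of the 7: Chrna3, Chrna7 and Chrm2 with 1 match each and Chrna4 with 3. The E-box CANNTG, present in 66.2%, was found in Chrna3, Chrna7, Chrnb2 and Chrnb4, and in Chrna3 both matches overlap each other. The printed stretch was 65.2% G and C for Chrna7 and 63.2% for Chrna3, above the mean of 53.2% over the 250-base windows of all promoters, and that of Chrm2 lay below this mean. The match began 122 bases upstream of the RefSeq start in Chrna7, 82 in Chrm2 and 13 in Chrna3. The GC box stood in genes that were called and in genes that were not.

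Chrm3 and Chrm1, both coupled to Gq, were near the limit of measurement. Chrm3 had 34, 33 and 27 reads in naive libraries, 13, 20 and 19 at day 1, 33, 33 and 25 at day 3, and 36, 42 and 19 at day 7. The day 1 libraries were the lowest group and did not overlap naive, with summed reads of 52 at day 1 (exact Poisson 95% interval 38.8 to 68.2, counting error only) against 94 in naive ganglia (76.0 to 115.0). A fit with no expression filter gave a log2 fold change of -0.44 at day 1 (SE 0.18, adjusted p = 0.338), and voom with no filter, added after the data were seen, gave -0.92 (SE 0.39, adjusted p = 0.318). Chrm1 had 5 to 26 reads in each of the 12 libraries, at 0.187 ± 0.123 RPKM at day 7 against 0.135 ± 0.0833 in naive ganglia. Its groups overlapped at every day, and a difference was not detectable at this depth.

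Chrna5, an accessory subunit that joins Chrna3 receptors, was not among the 10 genes and is named after its values were seen. It lay below the filter, with 9, 1 and 6 reads in naive libraries, 25, 17 and 40 at day 1, 36, 39 and 55 at day 3, and 48, 27 and 31 at day 7. All 9 injured libraries were above the 3 naive ones, and levels averaged 0.604 ± 0.196 RPKM at day 1, 1.01 ± 0.27 at day 3 and 0.825 ± 0.264 at day 7, against 0.132 ± 0.104 RPKM in naive ganglia. With no expression filter its log2 fold change was 0.82 at day 1 (adjusted p = 0.11), 1.25 at day 3 (adjusted p = 0.00972) and 1.06 at day 7 (adjusted p = 0.0353). With voom on recovered reads and no filter the values were 2.51 (adjusted p = 0.0466), 3.19 (0.00469) and 2.85 (0.0189). At days 1, 3 and 7 the limma fit with no filter called 404, 705 and 390 genes over all genes. Of these, 314, 480 and 312 were higher. Voom with no filter called 505, 884 and 486, with 374, 568 and 370 higher. How many of all genes lay above naive without overlap was not counted. Chrna5 lies at chr9:54980880-55007779 on the plus strand, 2331 bases from Chrna3, so that Chrna5, Chrna3 and Chrnb4 are neighbours.

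**Figure D5:**
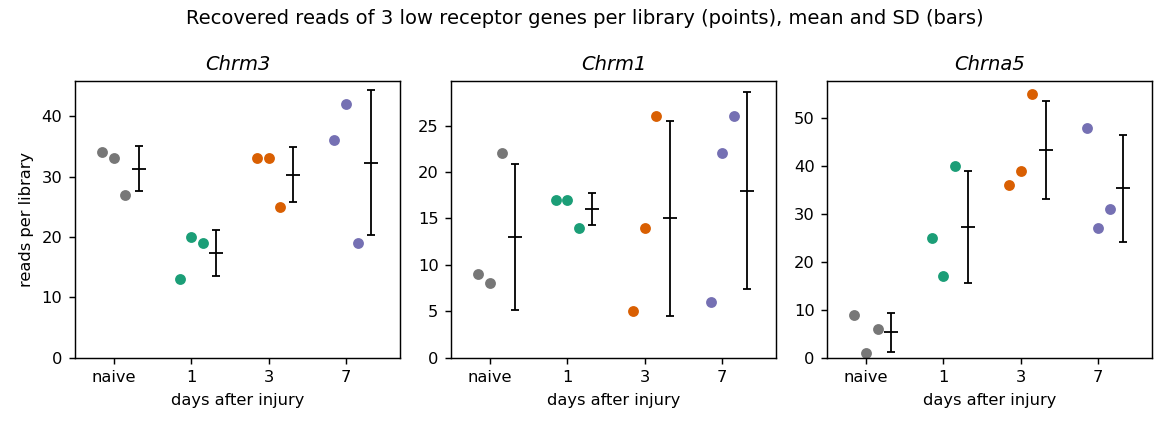
Reads per library (vertical axes, linear from 0) of Chrm3, Chrm1 and Chrna5 in naive ganglia and at days 1, 3 and 7, with 1 point per library and the mean ± SD of 3 libraries as bars. Chrna5 has 17 to 55 reads in injured libraries and 1 to 9 in naive ones, while Chrm1 overlaps in every group.

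Of the other 11 nicotinic and muscarinic genes, 1 passed the filter. Chrnb1, a subunit of the muscle receptor, averaged 4.96 ± 1.91 RPKM at day 1, 3.67 ± 1.32 at day 3 and 5.46 ± 0.546 at day 7, against 5.0 ± 0.594 RPKM in naive ganglia, and was not called. Chrna9 and Chrnd were at or below 0.1 RPKM in all libraries. Chrna1, the alpha subunit of the muscle receptor, had 21 to 48 reads per library, and Chrm4 had 4 to 27.

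Both cholinesterases were called lower at 1 day each. Of 9 genes for acetylcholine synthesis, transport and breakdown, 6 were tested and 2 were called, 1 at day 3 and 1 at day 7. Over all genes tested, 5.67% were called at day 3 and 2.92% at day 7. Bche, butyrylcholinesterase, stood at 3.8, 3.94 and 5.34 RPKM at day 3 against 7.49, 7.23 and 7.44 RPKM in naive libraries, a log2 fold change of -0.74 (adjusted p = 0.0124). Its libraries also lay below naive at days 1 and 7, at 67.6% and 73.8% of the naive mean (adjusted p = 0.108 and 0.21). Ache, acetylcholinesterase, stood at 2.24, 4.17 and 3.38 RPKM at day 7 against 7.13, 4.79 and 5.57 RPKM in naive libraries, at -0.79 (adjusted p = 0.0493). Its highest naive value was that of muscle-rich naive replicate 1, and no fit without that library is given for Ache. Bche at day 3 and Ache at day 7 did not overlap naive. Of all genes tested, 11.7%, 12.7% and 7.13% lay below naive without overlap at days 1, 3 and 7. Chat, which makes acetylcholine, was listed at 0 in 11 of 12 libraries, and Slc18a3, the vesicular transporter, in all 12. Slc5a7, the choline transporter, averaged 1.15 ± 0.495 RPKM at day 3 against 0.769 ± 0.18 RPKM in naive ganglia and was not called at any day. The median log2 fold change of the 6 tested genes was -0.13 at day 1, -0.04 at day 3 and 0.02 at day 7.

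Signalling partners were mostly not called. Of 20 G proteins and effectors of muscarinic receptors, 17 were tested, with 2 lower at day 1, 2 lower at day 3, 0 at day 7 and none called higher. Those with an unadjusted p under 0.05 numbered 5, 7 and 4 at days 1, 3 and 7, and voom called 2, 4 and 0. Over all genes tested, 0.831% were called lower at day 1, 1.95% at day 3 and 0.599% at day 7. Kcnj3, a potassium channel subunit opened by Gi/o-coupled receptors such as Chrm2, stood at 4.26, 7.06 and 4.25 RPKM at day 1 and 6.39, 5.84 and 5.77 at day 3, against 10.3, 9.54 and 10.2 RPKM in naive libraries. Both days lay below naive, at log2 fold changes of -0.91 (adjusted p = 0.0169) and -0.72 (adjusted p = 0.0423). The day 7 libraries of Kcnj3 also lay below naive, at -0.59, without passing (adjusted p = 0.154). Of all genes tested, 11.7%, 12.7% and 7.13% lay below naive without overlap at days 1, 3 and 7. Gnai1, a Gi alpha subunit, fell by 0.49 at day 1 (adjusted p = 0.0368), and Plcb3, a phospholipase C downstream of Gq, fell by 0.68 at day 3 (adjusted p = 0.00764). The median of the 17 was -0.05, -0.14 and -0.09 at days 1, 3 and 7. Of 11 chaperones and toxin-like modulators of nicotinic receptors, 7 were tested and limma called 0 at each of the 3 days. At an unadjusted p under 0.05 there were 3 at day 1, 1 at day 3 and 2 at day 7, and voom called 0 at each.

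By Pearson's r over the 12 libraries on the log2 scale, the tested genes most like Chrna6 were Pnma2 (r = 0.948), Prokr1 (0.941) and Cdh11 (0.919). For Chrna7 they were Nacc2 (0.969), Mgat4a (0.942) and Nuak1 (0.936), and for Chrm2 they were Ppp3ca (0.928), Creg2 (0.924) and Nek7 (0.916). The 12 points share the 4 groups and their library depth, and the genes were picked as the highest of all those tested, so the values are a description. Prokr1, a prokineticin receptor, averaged 9.67 RPKM at day 1 against 18.4 RPKM in naive ganglia (log2 fold change -0.89, adjusted p = 0.00194). Mgat4a, a glycosyltransferase, averaged 14.7 RPKM at day 3 against 23.9 RPKM in naive ganglia (-0.72, adjusted p = 0.00218). Nuak1 and Ppp3ca were not called against naive at any day. Genes picked for likeness to members that fell tend to fall too, so the p-values of Prokr1 and Mgat4a are no separate support.

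Markers of other cells and of neuron classes moved over the same days. Over all genes tested, 3.43%, 5.67% and 2.92% were called at days 1, 3 and 7. Of 9 tested markers of nonpeptidergic nociceptors, 4 were lower at day 1 and 5 at day 3, with P2rx3 higher at day 3 and 0 called at day 7, where 4 had an unadjusted p under 0.05 and voom called 1. Their summed RPKM ranged over 282 to 361 at day 1, 250 to 311 at day 3 and 308 to 384 at day 7, against 372 to 418 in naive libraries. Mrgprd, a Mas-related receptor, averaged 29.4 ± 5.06 RPKM at day 3 against 46.2 ± 3.28 RPKM in naive ganglia. Of 12 general neuron markers, Elavl3 was higher at days 1 and 3 and Nefh lower at day 7. At days 1, 3 and 7 their median log2 fold change was -0.16, -0.25 and -0.31. At an unadjusted p under 0.05 they numbered 1, 5 and 8. Their summed RPKM was 1610 to 2740 at day 7 against 2680 to 3580 in naive libraries. Of 10 low-threshold mechanoreceptor and proprioceptor markers, Slc17a8 was lower at day 3 and Nefh at day 7, with medians of -0.2, -0.36 and -0.33. Of 7 peptidergic nociceptor markers, Adcyap1 was higher at all 3 days, with medians of -0.11, -0.16 and -0.25. Macrophage markers were higher for 5 of 10 tested genes at days 3 and 7, with summed RPKM of 70.2 to 116.0 at day 3 and 72.2 to 142.0 at day 7 against 38.8 to 53.9 in naive libraries. Of 7 markers of sympathetic neurons 2 were tested, and Npy, which also stands in the list of injury-induced neuronal genes, was higher at all 3 days. Their summed RPKM was 9.02 to 16.8 at day 1, 22.1 to 28.9 at day 3 and 23.5 to 38.7 at day 7, against 9.22 to 12.3 in naive libraries, while Hand2 was at or below 0.1 RPKM in all libraries. The part of these markers in the receptor values was not tested.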

How the data were processed

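Ganglion RNA was taken up in Trizol, purified, amplified with a Nugen low-input kit and made into TruSeq Nano libraries, per the labels' protocols. No molecular identifiers are mentioned there, so counting intervals cover counting error only. The submitters' processing notes name mm10 and the tools STAR, HTSeq, limma, edgeR and bcl2fastq 2.17 without their roles. The deposited values were read as RPKM made by the authors, a unit inferred from the values and not written in the files. Values of a gene rose in steps of a single read, which gave whole reads for 21595 of 21597 detected genes (99.99%, tolerance 0.05 reads). Genes reaching 1 RPKM in 3 or more libraries were kept (14193), 4 entries with repeated symbols being left out. Libraries were scaled with unweighted trimmed means of log ratios (30% of log ratios and 5% of average levels trimmed at each end). limma 3.58.1 in R 4.3.3 was fitted to log2(RPKM + 0.5) with 4 group means, 8 residual degrees of freedom, trend and robust moderation; tests were two-sided, adjusted over all genes by Benjamini-Hochberg. Groups came from the sample titles. No 2 replicates agreed within sampling noise. The script was tested on simulated data. The members, lists and naming rule (all members, the 3 most similar genes of each member that differed among the groups, and up to 4 called genes per pathway list) were chosen with earlier results of these data known. Coordinates are from GENCODE M21. Other pseudocounts, filters, scalings, weights and tools, a replicate block and fits without single libraries were tried (closing section).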

Additional observations from a re-analysis of the deposited data

How the results depend on the processing

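Chrna6 at days 1 and 3 and Chrna7 and Chrm2 at day 3 were called in all 25 alternatives run. With array weights the members called were 3 at day 1, 4 at day 7, 1 for day 3 versus day 1, 1 for day 7 versus day 1 and 5 for any difference. With no expression filter they were 1 at day 7 and 1 for any difference. Without the 2 muscle-rich libraries they were 0 at day 7 and 2 for any difference. Leaving out 1 library at a time gave 0 to 3 members at day 7 and 1 to 3 for any difference. Chrna4 changed sign at day 3 with no scaling (0.02), with array weights (0.08) and without 1 library (-0.11 to 0.12), and at day 7 without the muscle-rich libraries (0.05) and without 1 library (-0.49 to 0.07). With array weights Chrna7 and Chrnb4 were called at day 1 (adjusted p = 0.0157 and 0.0266), and Chrna3 was called higher at days 3 and 7 (0.0181 and 0.0229). The cause of these shifts was not tested. With a replicate block the members called stayed at 1, 4 and 2, and 362, 652 and 323 genes were called at days 1, 3 and 7, against 487, 805 and 415 without it. Deviations of same-numbered libraries correlated at -0.34 to 0.234 (median -0.041), and those of other pairs at -0.35 to 0.298 (median 0.006). No sign of pairing by number was seen, but deviations from means of 3 libraries cannot exclude it. Over all genes, array weights called 1842, 1954 and 831, and leaving out the muscle-rich libraries called 277 at day 1 and 166 at day 7. A filter at 5 RPKM removed Chrna4, Chrnb3 and Chrnb4, which then had no value. Depth limits Chrm1 and Chrm3, at 5 to 42 reads per library.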
